A study of Mus musculus with 8 samples.

Results

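The 10 genes described here encode heat shock chaperones of the cytosol and of mitochondria: the HSP70 genes Hspa1a, Hspa1b and Hspa8, the HSP110 gene Hsph1, the HSP90 genes Hsp90aa1 and Hsp90ab1, the HSP40 genes Dnajb1 and Dnaja1, and the mitochondrial chaperonin genes Hspd1 and Hspe1. They were picked by gene symbol, and all 10 were found among the 21532 genes of the table. Liver RNA came from 8 male mice of the db/db strain, a model of obesity and diabetes caused by loss of the leptin receptor's signal. From 8 weeks of age, 4 mice received control and 4 received AF1 peptide, each at 5 mg/kg body weight by retro-orbital injection, 2 times per week for 5 weeks. AF1 peptide is a synthetic peptide made from a stretch of estrogen receptor α (ERα) with parts of it deleted. It is joined to a TAT sequence that carries it into cells. Both groups share the db/db genotype, the sex and the injections, and the series holds no lean mice. Each mouse gave 1 RNA-Seq library from whole frozen liver, in which fewer cells of a type and less RNA per cell cannot be told apart.

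Heat shock chaperones bind unfolded or partly folded proteins and use ATP to help them fold. HSP70 proteins take up short hydrophobic stretches, HSP40 (J-domain) proteins deliver the clients and speed up ATP hydrolysis, and HSP110 releases the nucleotide so that the cycle can start again. HSP90 acts later on kinases and steroid receptors, the estrogen receptor among them, and HSP60 with its lid HSP10 folds proteins imported into mitochondria. Part of each family is made at all times (Hspa8, Hsp90ab1), and part is switched on by heat shock factor 1 when proteins unfold (Hspa1a, Hspa1b, Dnajb1, Hsph1). The factor binds heat shock elements, which are GAA units repeated in alternating orientation.

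These elements are shown because the rule that picked the genes did not use them. In the RefSeq promoter table of GRCm38.p6 (250 bases before to 50 bases after each start site, a build other than the mm39 of the submitters' processing notes), 7 of the 10 genes have an entry, and Hspa8, Hsp90aa1 and Hsp90ab1 have none. A 3-unit element, TTCNNGAANNTTC or GAANNTTCNNGAA on either strand, was present for 3 of the 7 (Hspd1, Hspe1 and Hsph1) and for 0.662% of the 27025 genes of the table. A 2-unit element, TTCNNGAA or GAANNTTC, which also occurs inside every 3-unit element, was present for 6 of the 7 and for 17.0% of all genes. Dnajb1 held neither form. For each gene with an element before its start site, the element nearest to the start is printed 5′ to 3′ on the strand of the gene, with the element in capitals:
Hspd1 (chr1:55088053-55088082, minus strand): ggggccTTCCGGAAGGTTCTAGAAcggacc
Hspe1 (chr1:55088053-55088082, plus strand): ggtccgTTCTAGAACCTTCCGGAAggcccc
Hspa1a (chr17:34972247-34972266, minus strand): ctgctgGAAGATTCctggcc
Hspa1b (chr17:34959329-34959348, minus strand): ctgctgGAAGATTCctggcc
Hsph1 (chr5:149636356-149636375, minus strand): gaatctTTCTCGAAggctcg
Dnaja1 (chr4:40722338-40722357, plus strand): cctctaGAAAATTCtacgag

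The Hspd1 and Hspe1 lines are one stretch of DNA read from its opposite strands, since these genes lie head to head. Its 4 alternating units lay 144 to 127 bases before a start site of Hspd1 and 89 to 72 bases before that of Hspe1. Hspa1a and Hspa1b, which neighbor each other, had the same printed bases at the same distance, and 296 of the 300 bases of their promoter windows (98.7%) were identical. Because of these shared sequences, the counts of chaperone genes with an element are not counts of independent promoters. In Hsph1 the 3-unit element, TTCTGGAAAGTTC, lay after the start site.

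Before the values are read, 1 library has to be named. AF1 peptide replicate 1 stood far from the other mice on principal component 1 of the tested genes, with a score of 74.3 against -21.8 to 2.33 (39.3% of the variance). It had the lowest share of mitochondrial reads (20.8%, against 22.4 to 37.8% in the other mice). Its summed normalized count of 12 macrophage marker genes was 3940, against 8874 to 11265 in control and 9510 to 10609 in AF1 peptide replicates 2 to 4. Over all mice, 11 of these 12 genes had a negative log2 fold change (median -0.33) and 1, Adgre1, was called lower. Without this mouse 7 were negative (median -0.03) and 0 were called. Among markers of endothelium, cholangiocytes, lymphocytes with neutrophils, and red blood cells 0 genes were called with or without it. Among 12 stellate cell markers 1 was called lower, and without it 2 were called higher and 1 lower. The summed count of 12 hepatocyte markers, 2455513 in this mouse, was 2722928 to 3289273 in the other 7, and Alb, the gene of serum albumin, made up 1224160 of the sum in this mouse and 1511740 to 1997670 in the others. Single hepatocyte markers of this mouse lay far to either side. Tat, an amino acid-degrading enzyme, had 68707 normalized counts against 6311 to 23826 in the other mice, and Apoa1, an apolipoprotein, had 70155 against 124568 to 218632. With all mice 6 of the 12 hepatocyte markers had a negative log2 fold change (median 0.0094) and 0 were called. Without this mouse 11 were negative (median -0.13), and Tat (-0.74) was called lower. Recovered reads per mouse ranged from 23031880 to 45117528. The part of these differences in the results was not tested, and values without this mouse are given beside several results that it moves. Leaving it out raised the genes called over the whole table to 948 (5.93%), with 0 of the 10 chaperone genes among them.

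AF1 peptide treatment came with no called difference in any of the 10 chaperone genes (0 of 10). A gene was called at an unadjusted limma p value under 0.05 with more than 1.3-fold change, a rule that called 286 genes higher (1.79%) and 304 lower (1.90%) of the 15989 tested, or 3.69% in either direction. Without the fold threshold, 0 of the 10 and 6.19% of all genes had an unadjusted limma p value under 0.05. The adjusted p value was under 0.05 for 0 genes of the whole table (0%) in limma with Benjamini-Hochberg adjustment, and for 3 genes in DESeq2. The groups overlapped in all 10 genes, whereas 3.90% of all tested genes had no overlap. With so small a share called over the table, a count of 0 among 10 genes is near the background and is not a result about the chaperones. Rescaling to equal totals, which gave 122 genes higher and 602 lower over the whole table, also called 0 of the 10.

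The size of the differences says more than the calls. The log2 fold changes (AF1 peptide over control) ran from -0.04 to 0.29 with a median of 0.06, 7 positive and 3 negative. Over all tested genes the median was -0.0083, and 48.2% were positive. Regardless of sign, the median log2 fold change was 0.064 for the 10 genes and 0.142 for all tested genes. The tested genes reach down to a mean of 10 normalized counts, and these medians were not matched for abundance. The 95% confidence intervals in limma lay within a 2-fold change in both directions for all 10 genes, and within a 1.3-fold change for 5 of them (Hsp90ab1, Dnajb1, Dnaja1, Hspd1 and Hspe1). The highest upper bounds were those of Hsph1 (1.58-fold), Hsp90aa1 (1.55-fold) and Hspa1a (1.51-fold).

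**Figure D1:**
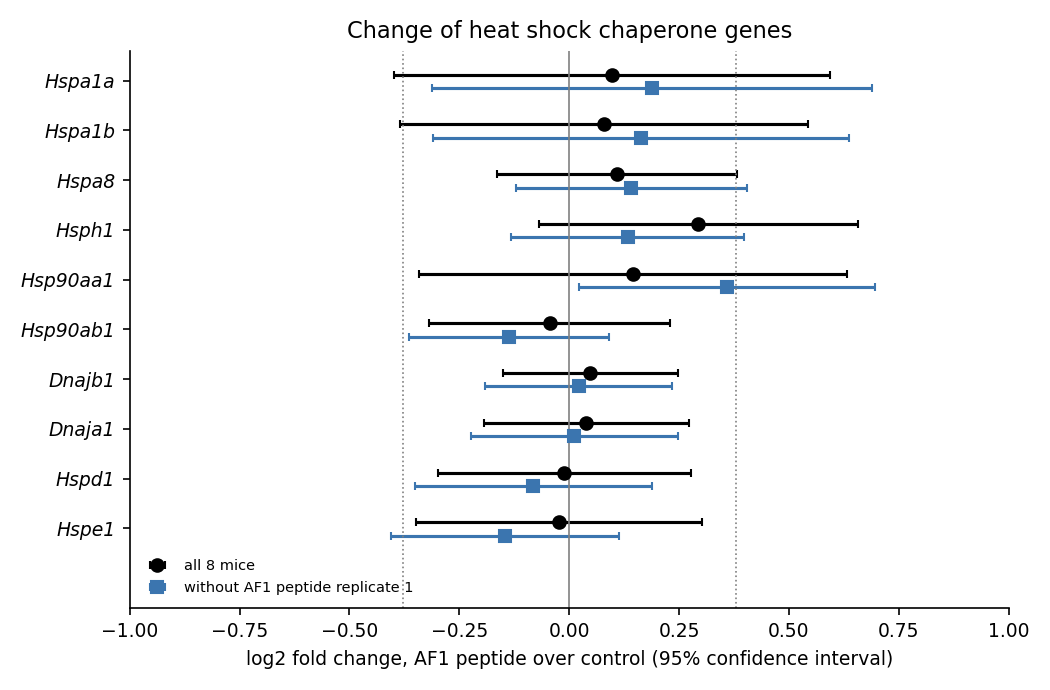
Log2 fold change (AF1 peptide over control) of each chaperone gene, with its 95% confidence interval from limma, for all 8 mice (black circles) and without AF1 peptide replicate 1 (blue squares). Dotted lines mark a 1.3-fold change; every black interval crosses 0, and the blue interval of Hsp90aa1 (0.02 to 0.70) does not.

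Hspa8 encodes HSC70, the HSP70 protein that cells make at all times, and it was the most abundant of these transcripts. Its normalized counts were 25301, 23268, 25231 and 22307 in control replicates 1 to 4 and 24183, 25669, 28362 and 25453 in AF1 peptide replicates 1 to 4. In 3 of the 4 AF1 peptide-treated mice the count lay above every control mouse, by a small margin in replicates 2 and 4. The means were 24027 ± 1484 and 25917 ± 1757 (SD, n = 4 each), a log2 fold change of 0.11 (standard error 0.12, 95% confidence interval -0.16 to 0.38, two-sided exact permutation p = 0.143, limma adjusted p = 0.857). The smallest p value that 4 against 4 mice allow in this permutation test is 0.0286. Reads of Hspa8 can be split with its pseudogenes. Other genes hold 38.6% of the 50-base words in its transcripts, and the processed pseudogene Gm15459, which holds 34.6% of them, had a mean normalized count of 5548 ± 378 in control mice and of 5949 ± 506 with AF1 peptide (SD, n = 4 each). With the counts of 5 such pseudogenes added, the log2 fold change of Hspa8 was 0.11.

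Hspa1a and Hspa1b encode the stress-induced HSP70 and were at the other end, with 26 to 84 and 35 to 83 reads per mouse. Hspa1a had normalized counts of 54.4, 50.2, 42.2 and 67.8 in control replicates 1 to 4. In AF1 peptide replicates 1 to 4 it had 46.7, 47.5, 60.1 and 77.1. Hspa1b had 42.0, 49.2, 45.4 and 69.5 in control and 44.8, 63.9, 51.9 and 55.1 in AF1 peptide-treated mice. The highest mouse had 1.83 (Hspa1a) and 1.65 times (Hspa1b) the lowest, and with no unstressed reference in the series these levels cannot be called basal or induced. Counting reads alone would give these genes a coefficient of variation of 14.0% each, against 21.3% and 18.4% observed over the 8 mice. The log2 fold changes were 0.10 for Hspa1a (95% confidence interval -0.40 to 0.59, exact permutation p = 0.714) and 0.08 for Hspa1b (-0.38 to 0.54, exact permutation p = 0.686). Hspa1b holds 58.8% of the 50-base words of Hspa1a, so reads of one can be counted for the other or lost. Summed with each other and with the related gene Hspa1l, they gave a log2 fold change of 0.23, which was not called. Hspa1l, which holds 7.95% of the words of Hspa1a, was the most abundant of the 3 (88.3 ± 17.1 and 116 ± 31.9 normalized counts, SD, n = 4 each), and its own log2 fold change was 0.37 in all mice and 0.50 without AF1 peptide replicate 1, where it was called higher.

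Hsph1, which encodes the HSP110 nucleotide exchange factor of HSP70, had the widest difference. Control replicates 1 to 4 had 213, 206, 185 and 188 normalized counts. AF1 peptide replicates 1 to 4 had 339, 230, 220 and 201. AF1 peptide replicate 1 was far highest, replicates 2 and 3 lay just above every control mouse, and replicate 4 lay among the controls. The means were 198 ± 13.4 and 247 ± 62.0 (SD, n = 4 each), a log2 fold change of 0.29 (standard error 0.16, 95% confidence interval -0.07 to 0.66, exact permutation p = 0.0857, limma adjusted p = 0.766). Without AF1 peptide replicate 1 the log2 fold change was 0.13 (-0.13 to 0.40). Hsph1 shared none of its 50-base words with other genes (0%), so its value does not rest on how shared reads were counted.

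Dnajb1, the heat-induced HSP40, was the steadiest of the 10. It had 403, 384, 388 and 377 normalized counts in control replicates 1 to 4 and 424, 400, 393 and 388 in AF1 peptide replicates 1 to 4. The 8 values span 1.12 times the lowest, and their coefficient of variation of 3.65% was below the 5.10% that counting reads alone would give. Its log2 fold change was 0.05 (95% confidence interval -0.15 to 0.25, exact permutation p = 0.2). Dnaja1, an HSP40 made at all times that works with Hspa8, had 3537, 3625, 2920 and 3122 normalized counts in control replicates 1 to 4. In AF1 peptide replicates 1 to 4 it had 3581, 3255, 3092 and 3616. All AF1 peptide-treated mice lay inside the control range, and the log2 fold change of Dnaja1 was 0.04 (-0.19 to 0.27, exact permutation p = 0.657). Dnaja1 overlaps other annotated genes, and 11.9% of its 50-base words occur elsewhere.

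The HSP90 genes differed from each other in how they varied. Hsp90aa1, the inducible isoform, had 2241, 2630, 2967 and 1865 normalized counts in control replicates 1 to 4. AF1 peptide replicates 1 to 4 had 1693, 2716, 2975 and 3559. Its lowest and its highest mouse were both AF1 peptide-treated, 2.10 times apart, and its coefficient of variation over the 8 mice (24.1%) was the largest of the 10 genes. The log2 fold change was 0.14 (95% confidence interval -0.34 to 0.63, exact permutation p = 0.571, limma adjusted p = 0.901). Single mice moved this value in both directions. It was 0.0011 without AF1 peptide replicate 4 and 0.025 without control replicate 4. Without AF1 peptide replicate 1, the log2 fold change was 0.36 (0.02 to 0.70, limma adjusted p = 0.488). Its unadjusted p value then passed the threshold, the change stayed short of 1.3-fold, and 2 of the 3 remaining AF1 peptide-treated mice lay above every control mouse. The transcribed pseudogene Gm12346 holds 41.8% of the 50-base words of Hsp90aa1 and had a mean normalized count of 508 ± 79.1 in control mice and of 424 ± 92.2 with AF1 peptide (SD, n = 4 each). With it and Gm5844 added, the log2 fold change of Hsp90aa1 in all mice was 0.09.

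Hsp90ab1, the isoform made at all times, had 11030, 12741, 11258 and 11513 normalized counts in control replicates 1 to 4. It had 13667, 10758, 10016 and 10939 in AF1 peptide replicates 1 to 4. Here the order was turned around, with AF1 peptide replicate 1 above every control mouse and the other 3 below every control mouse. The log2 fold change was -0.04 (95% confidence interval -0.32 to 0.23, exact permutation p = 0.686) and, without AF1 peptide replicate 1, -0.14 (-0.36 to 0.09). Per kilobase of exons, Hsp90aa1 stood at 15.9 ± 3.18% of Hsp90ab1 in control and at 19.0 ± 6.80% in AF1 peptide-treated mice (SD, n = 4 each, exact permutation p = 0.629). The lowest share was 9.45% in AF1 peptide replicate 1, and the highest was 24.8% in AF1 peptide replicate 4.

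Hspd1 encodes HSP60 and Hspe1 its lid HSP10. Hspd1 had 5230, 4845, 4038 and 4473 normalized counts in control replicates 1 to 4 and 5310, 4358, 3808 and 5036 in AF1 peptide replicates 1 to 4. Hspe1 had 2791, 2607, 2454 and 2572 in control and 3314, 2539, 1929 and 2657 in AF1 peptide-treated mice. For both genes the highest mouse was AF1 peptide replicate 1 and the lowest was AF1 peptide replicate 3, so that the group means came out nearly equal: 4647 ± 510 and 4628 ± 678 for Hspd1 and 2606 ± 140 and 2610 ± 567 for Hspe1 (SD, n = 4 each). The log2 fold changes were -0.01 (95% confidence interval -0.30 to 0.28, exact permutation p = 0.943) and -0.02 (-0.35 to 0.30, exact permutation p = 0.857). Without AF1 peptide replicate 1 they were -0.08 (-0.35 to 0.19) and -0.15 (-0.41 to 0.11). The pseudogene Hspd1-ps3 holds 38.0% of the 50-base words of Hspd1. With its counts added, the log2 fold change of Hspd1 was -0.0062. Hspd1 and Hspe1 overlap in the annotation.

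**Figure D2:**
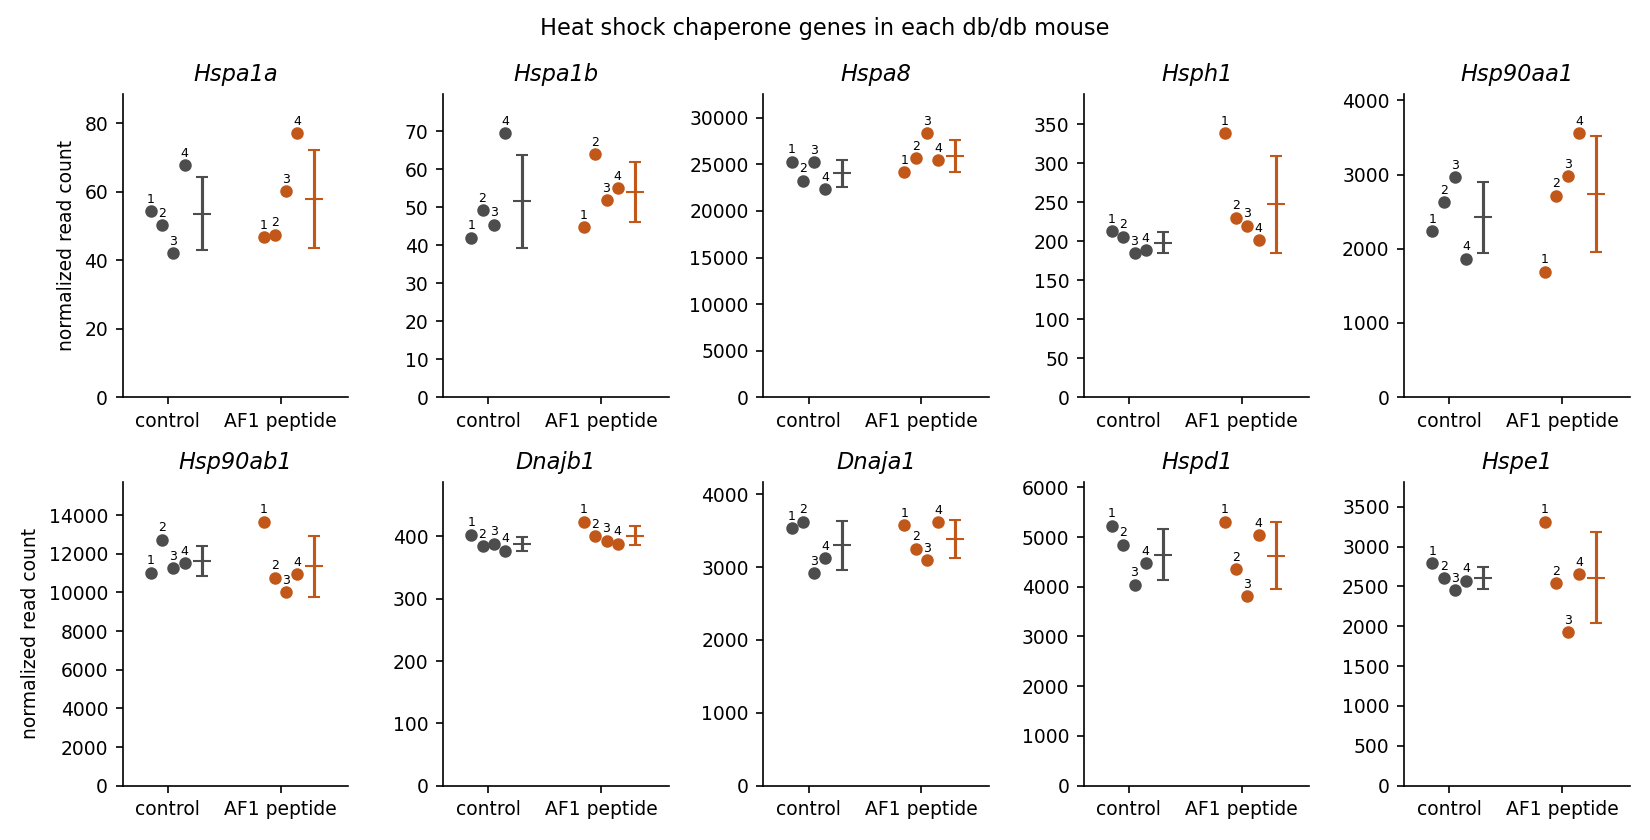
Normalized read count of each chaperone gene (vertical axes from 0) for db/db mice given control or AF1 peptide; each point is 1 mouse with its replicate number, and the bar gives the mean ± SD (n = 4). The groups overlap in all 10 panels, and AF1 peptide replicate 1 is the highest of the 8 mice in 5 of them and the lowest in 1 (Hsp90aa1).

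AF1 peptide replicate 1 was the highest of the 8 mice in Hsph1, Hsp90ab1, Dnajb1, Hspd1 and Hspe1, and the lowest in Hsp90aa1. In Hspa8, Hspa1a, Hspa1b and Dnaja1 it lay between the others. AF1 peptide replicate 3 was the lowest mouse in 3 genes and control replicate 3 in another 3.

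Levels between genes were compared as normalized counts per kilobase of merged exons (GENCODE M21), averaged over the 8 mice. Hspa8 stood at 5806, above 98.3% of tested genes. Hsp90ab1 followed at 3831. Hspe1 (1769) and Hspd1 (1755) came next and could not be ordered, because Hspe1 was above Hspd1 in 4 of the 8 mice. Their ratio per kilobase stayed between 90.8 and 111.9% in single mice. Hsp90aa1 (657), Dnaja1 (387), Dnajb1 (123) and Hsph1 (30.7) lay lower, and Hspa1b (18.8) and Hspa1a (18.8) were the lowest, above 22.8% of tested genes. Apart from these last 2 genes and the chaperonin genes, each gene exceeded the next in 8 of 8 mice, with no overlap of their ranges. The step from Hsp90aa1 to Dnaja1 rests on the exon lengths used, 3.93 and 8.63 kilobases. Without division by length Dnaja1 had the higher mean normalized count (3343 against 2581), so these 2 genes are not firmly ordered. The stress-induced Hspa1a stood at 0.327 ± 0.0828% of Hspa8 per kilobase in control and at 0.324 ± 0.0789% in AF1 peptide-treated mice (SD, n = 4 each, exact permutation p = 0.857). Merged exons count rarely used exons as well, and how reads shared with other genes were counted, which bears most on Hspa1a, Hspa1b, Hsp90aa1, Hspd1 and Hspa8, is not given.

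**Figure D3:**
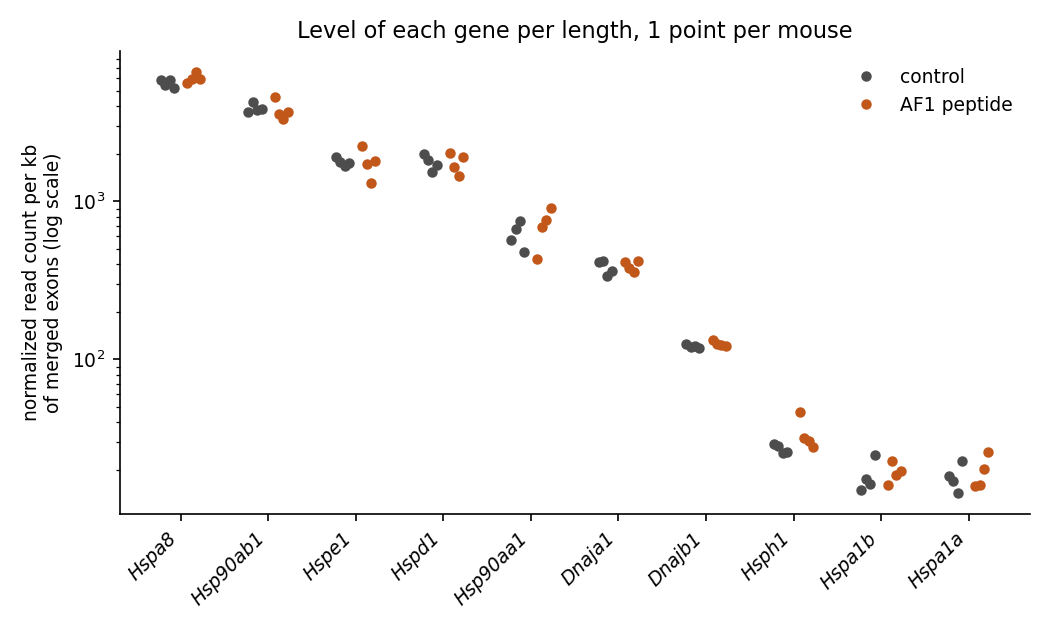
Normalized read count per kilobase of merged exons (log axis) of the 10 chaperone genes, from highest to lowest; each point is 1 control (grey) or AF1 peptide-treated (orange) mouse. Only Hspe1 with Hspd1 and Hspa1b with Hspa1a share their ranges among neighbors in this order.

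The spread between mice was compared next. The coefficient of variation over the 8 mice had a median of 13.3% for the 10 chaperone genes and 17.5% for all tested genes, and 6 of the 10 lay below the median gene. This comparison was not matched for abundance either. Whether related genes varied together was tested for 4 pairs by two-sided exact permutation of the log2(normalized count + 1) over the 8 mice, with Benjamini-Hochberg adjustment over the 4 pairs. Hspd1 and Hspe1 put the 8 mice in the same order (Spearman rho = 1.00, permutation p = 4.96e-05, adjusted p = 0.000198). Pearson r was 0.87 (permutation p = 2.48e-05, adjusted p = 9.92e-05), and both p values are the smallest that these permutations can give. Without the 2 mice farthest from the median of Hspd1, r was 0.76, and with 1 mouse left out in turn it was 0.78 to 0.91. Hspe1 ranked 138 among the 15988 other tested genes by r with Hspd1, so many other genes followed Hspd1 more closely. Hspd1 and Hspe1 share the printed element and also overlap in the annotation on opposite strands. With strand use not given, reads of the overlap may have entered both counts. What part the element or the overlap has in their common order was not tested.

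Dnajb1 and Hsph1, the HSP40 and HSP110 partners of HSP70, also varied together (r = 0.91, permutation p = 0.00392, adjusted p = 0.00784). Spearman rho was 0.81 (permutation p = 0.0218, adjusted p = 0.0436). The coefficient of variation of Dnajb1 (3.65%) was below the 5.10% that counting reads alone would give, so its values show no spread beyond counting. By r with Dnajb1, Hsph1 ranked 142 among the 15988 other tested genes. AF1 peptide replicate 1, highest in both genes, carried part of this relation. Without it r was 0.73 (permutation p = 0.0615), and without the 2 mice farthest from the median of Dnajb1 it was 0.63. Hsp90aa1 and Hsp90ab1 ran in opposite directions (r = -0.62, permutation p = 0.0953, rho = -0.74, permutation p = 0.0458), which did not pass adjustment (adjusted p = 0.127 and 0.0611), and r was -0.25 without the 2 farthest mice and -0.31 without AF1 peptide replicate 1. The 4 control mice on their own, too few for a correlation, did not show the opposite order. For Hspa1a and Hspa1b, r was 0.46 (permutation p = 0.243, adjusted p = 0.243) and rho was 0.50 (permutation p = 0.216), and r was 0.035 without the 2 farthest mice. At 26 to 84 reads per mouse no relation was detectable for this pair. No sequencing batch is given in the labels, so no value within batches can be computed.

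**Figure D4:**
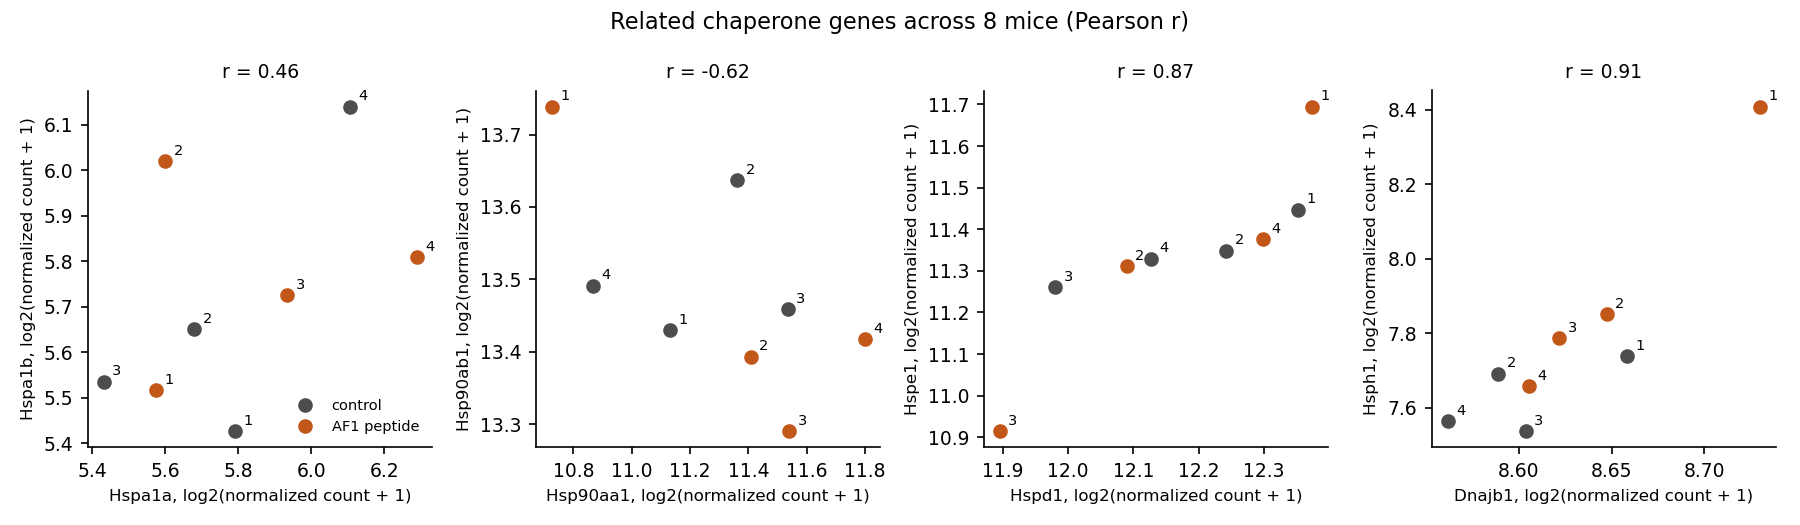
Log2(normalized count + 1) of 4 pairs of related chaperone genes in 8 mice (grey control, orange AF1 peptide-treated, numbered by replicate), with Pearson r above each panel. The Hspd1 and Hspe1 values follow one order over all mice (rho = 1.00), and AF1 peptide replicate 1 sits alone at the upper right of the Dnajb1 and Hsph1 panel.

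Genes that work with these chaperones were described from 9 lists, with 106 of 111 listed genes tested. Of these, 1 was called higher and 2 lower (2.83%, against 3.69% of all tested genes), 4 had an unadjusted limma p value under 0.05 (3.77%, against 6.19%), and the median log2 fold change was -0.03. Fkbp5, a cochaperone that holds steroid receptors on HSP90, was the gene called higher. It had 594, 595, 657 and 701 normalized counts in control replicates 1 to 4 and 1136, 760, 758 and 771 in AF1 peptide replicates 1 to 4. Every AF1 peptide-treated mouse was above every control mouse, with replicate 1 far above the rest. The log2 fold change of Fkbp5 was 0.41 (standard error 0.14, limma adjusted p = 0.763), and it was 0.26 without AF1 peptide replicate 1, below the 1.3-fold threshold. Leaving out control replicate 1 or 2 also brought it just under that threshold (0.38 each). The genes called lower, Hspa13 and Hspa12a, belong to the HSP70 family. Hspa13 fell by 0.53 on the log2 scale, with no overlap between 178 to 239 normalized counts in control and 96.4 to 170 in AF1 peptide-treated mice. Its call was lost without control replicate 2 (-0.43). Hspa12a fell by 0.46 and did overlap (80.0 to 114 and 63.5 to 100.1), and its call was lost when any mouse other than control replicate 3 or AF1 peptide replicate 4 was left out (-0.38 without AF1 peptide replicate 1).

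Of the heat shock factors, which drive the inducible chaperones, Hsf1 came closest to a call. It had 593, 577, 627 and 532 normalized counts in control replicates 1 to 4. In AF1 peptide replicates 1 to 4 it had 725, 756, 748 and 626. The first 3 of these lay above every control mouse, and replicate 4 missed the highest control mouse by less than 1 count. Its log2 fold change was 0.29 (standard error 0.10, 95% confidence interval 0.07 to 0.51, exact permutation p = 0.0571, limma adjusted p = 0.763). The unadjusted limma p value passed the threshold and the fold change did not, so it was not called. Without AF1 peptide replicate 1 the log2 fold change of Hsf1 was 0.28, and with equal totals it was 0.20 and its unadjusted p value missed the threshold. Hsf2 and Hsf4 had log2 fold changes of 0.15 (exact permutation p = 0.0857) and 0.24 (exact permutation p = 0.2), and 0 of 4 tested genes of this list were called. The inducible Hspa1a, Hspa1b, Dnajb1 and Hsph1 stood at log2 fold changes of 0.05 (Dnajb1) to 0.29 (Hsph1), none of them past the threshold.

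In the other lists no gene was called with all 8 mice, and the genes with the smallest p values are given by their log2 fold changes. Among 18 genes of a list of other J-domain proteins these were Dnajb5 (0.25) and Dnajc9 (-0.20), and the median of the list was -0.02. Among 5 tested genes of the small heat shock protein list, they were Hspb8 (0.20) and Hspb11 (-0.18). Hspb1, of the same list, stood at -0.41 in all mice and at 0.05 without AF1 peptide replicate 1, and was not called either way. It had 156 normalized counts in that mouse and 435 to 680 in the others. The mitochondrial list (16 genes, median -0.02) was led by Grpel1 (-0.37), the nucleotide exchange factor of mitochondrial HSP70, and Clpx (-0.26), an unfoldase of the matrix protease. Grpel1 was called lower with equal totals (-0.46), without control replicate 3 (-0.50) and without AF1 peptide replicate 2 (-0.46). Without AF1 peptide replicate 1 the median of the mitochondrial list was -0.06. Hspa9, the mitochondrial HSP70, then stood at -0.26 against 0.01 in all mice and was not called. It had 11077 normalized counts in that mouse and 4671 to 7067 in the others. Of the 8 subunits of TRiC, the cytosolic chaperonin, 7 were negative with a median of -0.06 (8 and -0.16 without AF1 peptide replicate 1), and Cct2 and Cct3 stood at -0.13 each. Prefoldin, which hands clients to TRiC, had a median of 0.07 over 6 genes, led by Pfdn6 (0.23) and Pfdn2 (0.16). Of 15 endoplasmic reticulum chaperones 11 were negative (median -0.10), led by Pdia6 (-0.29) and Dnajc10 (-0.21). Without AF1 peptide replicate 1, 13 were negative with a median of -0.17, and Pdia6 (-0.39) and Dnajb9 (-0.54 against -0.33 in all mice) were called lower. Over the 106 genes of the 9 lists, 1 was then called higher (Hspa1l) and 4 lower (Hspa13, Bag2, Pdia6 and Dnajb9), or 4.72% against 5.93% of all tested genes. Bag2, an HSP70 cochaperone, stood at -1.03 without this mouse and at -0.72 with it. Hspa1l, Hspa9, Hspb1, Bag2 and Dnajb9 are named here after their values were seen. Medians of these lists were set beside the -0.0083 of all tested genes with no test.

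**Figure D5:**
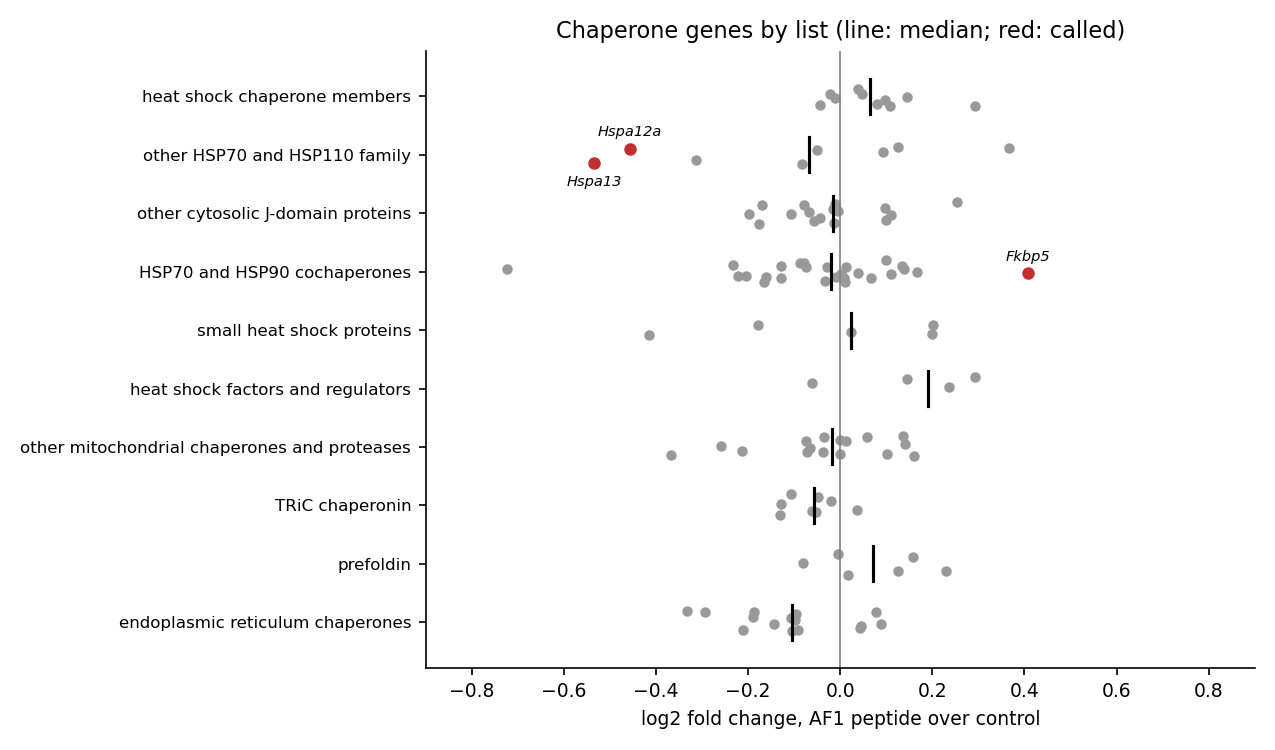
Log2 fold change (AF1 peptide over control) of the 10 heat shock chaperone genes and of the tested genes of 9 other chaperone lists; each point is 1 gene, the black line is the median, and red points are genes called. The called genes are Fkbp5 (0.41), Hspa12a (-0.46) and Hspa13 (-0.53).

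Rbm3 and Cirbp encode RNA-binding proteins whose transcripts rise in the cold. Rbm3 had 884, 787, 713 and 1112 normalized counts in control replicates 1 to 4 and 829, 515, 658 and 733 in AF1 peptide replicates 1 to 4, a log2 fold change of -0.36 (exact permutation p = 0.143). Cirbp stood at -0.06. Neither was called, and Rbm3 was past the threshold without AF1 peptide replicate 1 (-0.45) or without control replicate 3 (-0.45). Of 20 tested immediate early genes, which are induced within minutes by handling or injury, 0 were called, and without AF1 peptide replicate 1 Klf4 was called higher (0.63) and Btg2 lower (-0.43), both named after their values were seen. The summed normalized count of this list was 9925 to 11342 in control and 9141 to 12837 in AF1 peptide-treated mice. AF1 peptide replicate 1 had the highest of these sums, as it had the highest Hsph1 and Dnajb1. Its part in those values was not tested.

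The genes most like the 10 chaperones were sought by Pearson r with their mean log2(normalized count + 1) over the 8 mice, among 12433 other tested genes that averaged 50 normalized counts or more. The 8 closest were Kifap3 (r = 0.92), Adap2 (0.90), Esf1 (0.90), Stambp (0.89), Agap1 (0.88), Cflar (0.87), Cks1b (0.86) and Car5b (0.86). They were chosen for this likeness out of many genes, so no p value is given. Without the 2 mice farthest from the median, r stayed high for Agap1 (0.96), Esf1 (0.90) and Cflar (0.88) and was 0.72 for Stambp. It dropped for Kifap3 (0.62), Car5b (0.56), Cks1b (0.55) and Adap2 (0.50).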

How the data were processed

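Per the labels and the methods, the authors trimmed reads of stranded mRNA libraries with Trim Galore 0.6.7 and aligned them with HISAT2. SAMtools 1.17 handled the alignments, and GenomicAlignments gave reads per gene. The processing notes name the build mm39. Annotation, strand use and the treatment of reads with several matches are not given in the sources used here. The deposited signal is a normalized read count, the reads of a gene divided by 1 size factor per library; 100% of 172256 values came out whole within 0.01 reads. Columns of other samples: 0.

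Tests on log2(normalized count + 1) used limma 3.58.1 in R 4.3.3, with a trended prior variance, on 15989 genes averaging 10 normalized counts or more. The procedure was checked on simulated counts. edgeR 4.0.16 and DESeq2 1.42.0 ran on the recovered reads. Exact permutation tests and correlations used SciPy 1.17.1. Shared 50-base words and exon lengths came from GENCODE M21, promoters from RefSeq. Replicates of a group differed by far more than sampling noise (chi-square per degree of freedom 14.6 to 312).

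The 10 genes, the other lists and the tests were chosen with earlier results of these data known. Besides the 10, genes are named if called in a chaperone list, or else as the 2 with the smallest p values in it, with Rbm3, Cirbp, Hsf1 and Hsf2, and the 8 genes most like the 10 across mice. Alternatives were other pseudocounts, no filter, TMM or equal totals, each gene's own variance, the replicate block, edgeR, DESeq2 and each mouse left out.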

Additional observations from a re-analysis of the deposited data

Results flagged for a closer look

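In each group of 4 mice, the gap of the highest or lowest mouse to its neighbor was divided by the range of the group and set against Dixon's critical value. Of 66 groups tested (the 10 chaperone genes, 20 other named genes, total reads, the mitochondrial share and the mean of the 10 genes), 4 had a mouse apart, where chance gives about 3.3, and 0 of them concerned the 10 chaperone genes. Fkbp5 in AF1 peptide replicate 1 was apart at 1136 normalized counts against 758 to 771 in the other treated mice (gap over range 0.964). Hspa12a was low in control replicate 3 at 80.0 against 112 to 114 (0.941). Hspa13 was high in control replicate 2 at 239 against 178 to 185 (0.884), and its call was lost without that mouse (log2 fold change -0.43). Control replicate 1 had the most reads of its group, 45117528 (0.857).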

How the results depend on the processing

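None of the 10 chaperone genes was called under any alternative that was run (0 higher and 0 lower in each). Of 180 recomputed log2 fold changes of these genes, 162 kept their direction and 18 changed sign. With equal totals Hspa1b (-0.010), Dnajb1 (-0.043) and Dnaja1 (-0.052) turned negative, and Hspe1 was 0.0020 in edgeR and 0.0020 in DESeq2. With 1 mouse left out in turn, the log2 fold change ranged from -0.049 to 0.22 for Hspa1a, -0.0073 to 0.23 for Hspa1b, 0.0011 to 0.36 for Hsp90aa1, -0.14 to 0.012 for Hsp90ab1, -0.018 to 0.086 for Dnaja1, -0.081 to 0.079 for Hspd1 and -0.15 to 0.11 for Hspe1. Cirbp ranged from -0.23 to 0.079. Over all genes, 435 were called higher and 459 lower without the filter, 122 and 602 with equal totals (16.9% of calls higher, against 48.5%), 197 lower with each gene's own variance, 506 and 484 with no fold threshold, 0 and 0 at an adjusted p value under 0.05 in limma, and 198 to 457 and 173 to 491 with 1 mouse left out. Of the values of the 20 other named genes, 12 lost a call (Hspa12a, Hspa13 and Fkbp5, the last also with equal totals at 0.32) and 6 gained one (Grpel1 with equal totals at -0.46 and without control replicate 3 or AF1 peptide replicate 2, Pdia6 without AF1 peptide replicate 1, and Rbm3 without control replicate 3 or AF1 peptide replicate 1). Pearson r ranged from 0.27 to 0.70 for Hspa1a with Hspa1b, -0.73 to -0.31 for Hsp90aa1 with Hsp90ab1, 0.78 to 0.91 for Hspd1 with Hspe1 and 0.73 to 0.95 for Dnajb1 with Hsph1. The causes were not tested. The summing of reads with sharing genes, the lists without AF1 peptide replicate 1 and the alternatives for pairs were chosen after seeing the data.

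Replicate numbers are shared by the groups but mark different mice. Same-numbered mice deviated from their group means with correlations of -0.064 to 0.235, and 4 of 8 mice correlated best with their own number. The mean correlation was 0.103 for same-numbered and -0.034 for different-numbered mice. Whether mice of one number share more than the name was not tested. With the replicate block, limma called 341 genes higher and 392 lower over the table, and 0 of the 10.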
